A study of Homo sapiens with 8 samples.

Results

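The isolated LSD1 regions are places where LSD1 was found in every library and where no other LSD1 summit lay within 100 kb. The assay was CUT&RUN, in which an antibody against LSD1 directs a nuclease to cut and release the surrounding chromatin for sequencing, and the cells were MDA-MB-231, an established breast cancer line of human origin. The parental cells and the RCOR2-KO1 cells, in which RCOR2 was knocked out by CRISPR/Cas9, were each measured in 2 libraries, all from untreated cultures in DMEM with serum as far as the labels tell. The deposited lists held 47354 to 54467 summits per library, where a summit is the 1 bp of highest signal in a peak called with MACS2, for which libraries made with normal rabbit IgG served as input. Neighbouring summits at most 500 bp apart, from the autosomes and X, formed 1 region, which gave 68148 regions, of which 35861 had a summit in all 4 lists. Isolated regions were chosen by these summit positions: they were those of the 35861 whose median summit position was more than 100 kb from the nearest summit of any list outside the region, and there were 696 of them, or 1.94%. The other 35165 regions of all 4 lists serve as the comparison and are called the other shared regions. Presence in every list and distance from other summits were therefore fixed by the choice, whereas the strength of the summits was not used. The spread of summit positions within a region was limited by the joining. Regions found in more lists were also stronger, so presence in all 4 bears on the strength of isolated and other shared regions alike. The methods describe a mix of several knockout clones after their account of another cell line and refer to earlier work for MDA-MB-231, so whether KO1 is such a mix is not clear, and the loss of RCOR2 could not be checked in summit lists. The methods say that the assay was done 2 times but not whether from separate cultures, so p-values measure the spread between these libraries, which may be technical.

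LSD1 is a demethylase that removes mono- and dimethyl groups from lysine 4 of histone H3, marks found at enhancers and promoters. It works in the CoREST complex, in which an RCOR protein holds it together with the deacetylases HDAC1 and HDAC2 and lets it act on nucleosomes. Long stretches of the genome hold few or no genes, and the regulatory elements in them can lie far from the genes they control. The genes next to the isolated regions were not identified here, since coordinates are those of hg19 (GRCh37) and no annotation or genome of that build was used, so each region is named by its place.

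The isolated regions lay far beyond the usual spacing of LSD1. The distance to the nearest other summit was 143 kb at the median, with quartiles of 117 and 190 kb, against a median of 6.85 kb for the other shared regions. On their wider side, the median stretch without a summit was 258 kb. There were 158 isolated regions with more than 200 kb on each side, 17 with more than 500 kb and 2 with more than 1000 kb. The nearest neighbour was less often a region of all 4 lists than it was for the other shared regions. It was found in all 4 lists for 45.1% of isolated regions and in 1 list for 26.3%, against 55.2% and 20.6% for the other shared regions. Counting only regions of all 4 lists as neighbours, the median distance was 180 kb, and 67 isolated regions had none within 500 kb. Within 1 Mb on each side there were 27 other regions at the median, against 68 around the other shared regions, with a range from 0 to 140. Isolated regions also stood next to each other: 166 of the 696 had another isolated region as a direct neighbour with no region between them. The longest such run had 3 members, on chromosome 1 at 79789119-79789153, 80211792-80211846 and 80365731-80365829.

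The share of shared regions that were isolated differed widely between chromosomes. It was highest on X, where 44 of 963 shared regions were isolated (4.57%), followed by chromosome 4 (68 of 1710, 3.98%), chromosome 13 (31 of 923, 3.36%) and chromosome 18 (21 of 700, 3%). It was lowest on chromosome 22 (2 of 619, 0.323%), chromosome 19 (7 of 1338, 0.523%), chromosome 16 (7 of 1069, 0.655%) and chromosome 17 (11 of 1519, 0.724%). The chromosomes with the highest shares had few shared regions of any kind, with 6.34 per Mb on X and 8.95 per Mb on chromosome 4 against 22.7 per Mb on chromosome 19, so the order partly follows from the choice itself. Chromosomes 4, 13 and 18 were also poor in genes. They had 3.46 to 4.03 protein-coding genes per Mb in RefSeq (GRCh38.p14), against 24.7 on chromosome 19 and 14.4 on chromosome 17. X had 5.58, close to chromosomes 9 and 10 (5.53 and 5.42), where the isolated share was 1.77% and 1.58%. Across the 23 chromosomes the isolated share and the number of genes per Mb had a Spearman's rho of -0.803 and a Pearson's r of -0.663. This is a description over chromosomes that share the same 4 libraries.

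**Figure D1:**
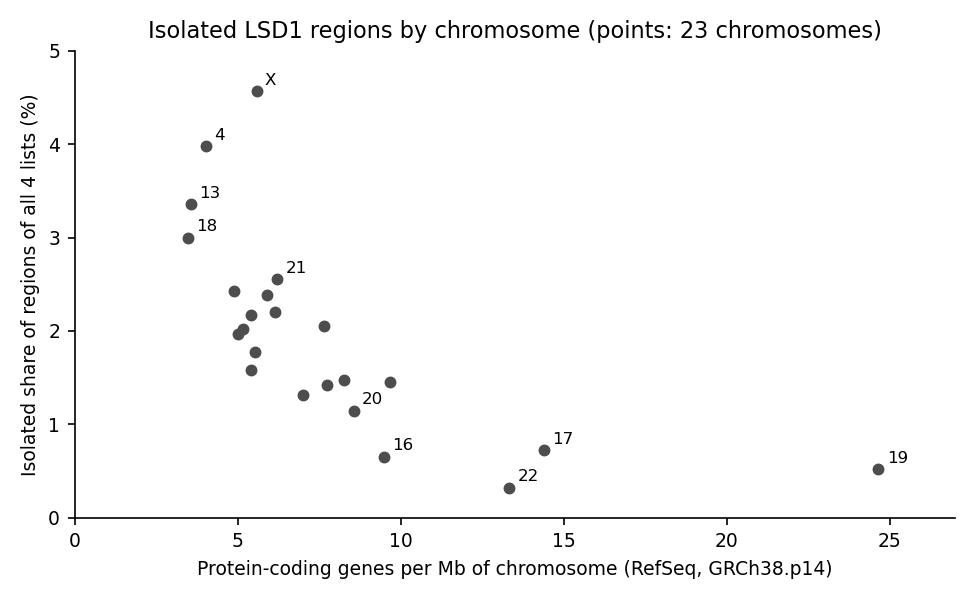
Isolated share of the regions found in all 4 lists (y axis, %) against protein-coding genes per Mb (x axis), with 1 point for each of 23 chromosomes. The genes are counted in RefSeq GRCh38.p14 and divided by the span between the first and last LSD1 region of the chromosome in hg19. X and chromosomes 4, 13 and 18 sit at 3% to 4.57%, and chromosomes 16, 17, 19 and 22 at 0.323% to 0.724%.

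Some isolated regions marked the edge of very long stretches without an LSD1 summit. There were 29 stretches of more than 3 Mb between neighbouring regions, and 11 of the 28 shared regions at their edges were isolated. On chromosome 10 both edges of the same stretch were isolated regions: 38691830-38692102 had no summit for 4.17 Mb to its right and 42863525-42863596 none for 4.17 Mb to its left. The same held on chromosome 20 for 26144310-26144717 and 29611656-29612020, with 3.47 Mb between them. The other isolated edges lay on chromosomes 3, 6, 8, 9, 18, 19 and X. These regions were not of 1 strength. The edge on chromosome 19, 28284735-28284792, had a mean percentile over the 4 libraries of 95.3, that on chromosome 18, 18691838-18691937, of 83.2, and that on chromosome 20 at 29611656-29612020 of 28.4. Assembly gaps and repeats in these stretches and at their edges were not analysed here, so a stretch without summits need not lack LSD1.

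The isolated regions were weaker than the other shared regions in each library. Strength is given as the percentile of a summit's −log10 p or q value in the list it came from, with the strongest summit at 100, since the −log10 value grows with sequencing depth and the depth is unknown. The median percentile of the isolated regions was 42.0 and 50.1 in parental replicates 1 and 2, and 49.0 and 47.1 in KO1 replicates 1 and 2. For the other shared regions these medians were 59.4 and 64.9 in parental and 61.4 and 61.6 in KO1 cells. The isolated regions were thus lower by 12.4 to 17.4 points, on average by -14.8 ± 2.08 points (SD, n = 4 libraries). The medians of the 2 kinds of region did not overlap between libraries. The rank fell with distance before the limit of 100 kb was reached. The median of the mean percentile was 64.8 for shared regions at 2 to 5 kb from the next summit, 59.02 at 10 to 20 kb, 51.4 at 50 to 100 kb, 46.3 at 100 to 200 kb and 44.5 beyond 200 kb. Regions within 2 kb of another were an exception, with a median of 58.1. Among the isolated regions themselves distance said little about rank, with a Spearman's rho of -0.0672 over 696 regions as a description.

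**Figure D2:**
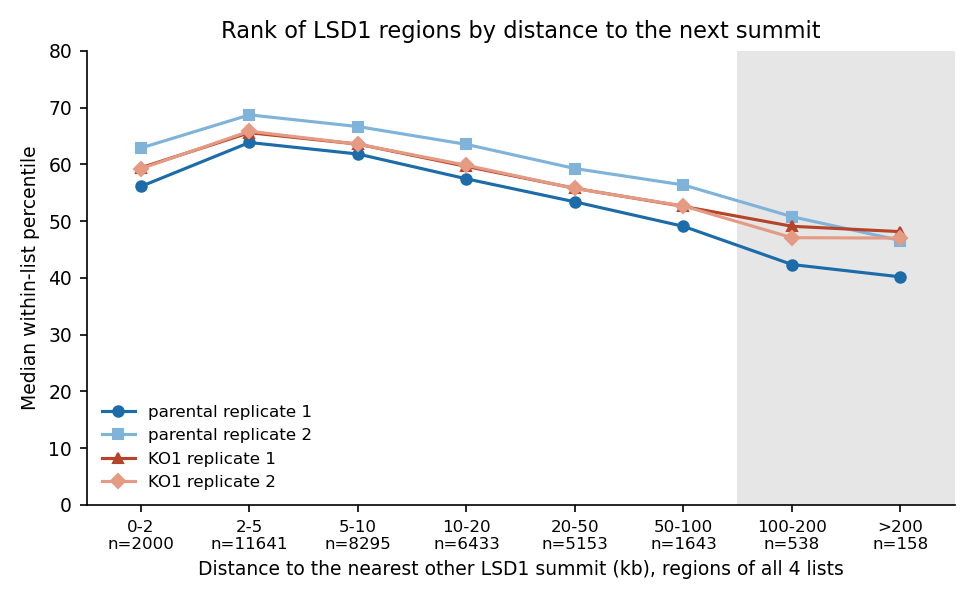
Median within-list percentile (y axis) of regions found in all 4 lists by the distance from the region to the nearest other LSD1 summit (x axis, kb, with the number of regions in each class). Each line is 1 library, and the grey area holds the 696 isolated regions, whose library medians lie between 40.2 and 50.8, lower than at 2 to 100 kb within each library.

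The lower rank was not carried by a few chromosomes. The median of the isolated regions was below that of the other shared regions on 22 of 23 chromosomes, and on all 20 chromosomes with at least 10 isolated regions. Chromosome 16 was the exception, where the median of 7 isolated regions was 64.5 and that of the other shared regions 58.4. The gap was widest among the 20 on chromosome 11 (-26.3 points) and smallest on chromosome 9 (-3.30 points). There was also a lack of very strong members: 9 of the 696 (1.29%) ranked at percentile 90 or above in all 4 libraries, against 6.504% of the other shared regions. At the other end, 30.7% of isolated regions ranked under percentile 50 in all 4 libraries, against 17.9% of the other shared regions. In all 4 libraries, 0 isolated regions and 7 of the other shared regions (0.0199%) ranked under 10. Within single libraries, 4.31% to 9.77% of isolated regions ranked under 10, against 2.03% to 4.78% of the other shared regions, and the share was higher in each library.

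A few isolated regions were nevertheless among the strongest LSD1 regions of the genome. The strongest lay on chromosome 2 at 63815733-63815901, with no other summit for 538 kb to its left and 110 kb to its right. Its percentile was 98.5 and 98.7 in the parental libraries and 98.6 and 98.7 in the KO1 libraries, so that all 4 values lay within a narrow band. The next, on chromosome 21 at 15755639-15755648, had its summit within 9 bp in all 4 libraries. It ranked at 98.6 and 97.7 in parental cells and at 98.2 and 99.2 in KO1 cells, again with overlapping genotypes. On chromosome 10 the region 107345741-107345781 ranked at 96.9 and 97.4 in parental cells and at 98.3 and 91.3 in KO1 cells, where the second KO1 library alone was lower. On chromosome 1, 149223846-149223922 had percentiles of 92.5 and 96.7 in parental and 95.6 and 97.6 in KO1 cells. On chromosome 3 the region 131854958-131855009 had percentiles of 92.4 and 98.4 in parental and 97.3 and 93.2 in KO1 cells. The sixth was the edge region on chromosome 19 described above, at 94.9 and 98.6 in parental and 90.7 and 96.8 in KO1 cells. In all 6 the genotypes overlapped, and the differences between the genotype means were between -2.98 and 2.04 percentile points.

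Of the 6 most remote regions, 5 were of middle or low rank. The most remote was on chromosome 2 at 194382921-194383009, with no other LSD1 summit for 1251 kb on the left and 1684 kb on the right. It ranked at 40.1 and 52.0 in parental and 39.3 and 59.6 in KO1 cells, so it was found near the middle of each list. The next was the edge region on chromosome 9 at 41954809-41955056, with 1163 kb on its nearer side and percentiles of 32.8 and 49.1 in parental and 53.0 and 45.6 in KO1 cells. The third, on chromosome 8 at 140227552-140227822, had 902 kb on its nearer side. It ranked at 91.9 and 79.5 in parental cells and at 43.2 and 55.3 in KO1 cells, which was the only case among the 6 most remote in which the genotypes did not overlap. Its difference of -36.5 points had an adjusted p of 0.277 (limma on percentiles over all 35861 shared regions, Benjamini-Hochberg), and of 0.0432 by limma on normal scores of the ranks. On chromosome 20 the region 9032323-9032418 had 846 kb on its nearer side and a mean percentile of 39.9, with parental libraries at 24.2 and 54.1 and KO1 libraries at 43.2 and 38.0. Both remaining ones were weak: chromosome 5 at 152068212-152068322 had a mean percentile of 11.4 and chromosome 4 at 93891263-93891354 one of 20.1. The second of these ranked at 13.6 and 30.9 in parental and 8.16 and 27.8 in KO1 cells, and the replicates of each genotype were farther apart than the genotypes.

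The weakest isolated region was on chromosome 10 at 84048354-84048529, with percentiles of 2.16 and 0.843 in parental and 21.9 and 1.45 in KO1 cells. Its values were thus close to the calling limit in all libraries but the first KO1 library. The following 3 had mean percentiles of 9.27 (chromosome 2, 13447846-13447936), 10.2 (chromosome 4, 123379942-123380052) and 10.7 (chromosome 9, 71115679-71116049). The 3 regions just inside the distance limit, at 100.001 to 100.288 kb, had mean percentiles of 34.3, 78.9 and 38.9, and the 3 just outside, at 99.7 to 99.97 kb, had 30.3, 34.6 and 38.7.

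The recurrence of isolated summits lay between that of closely and of moderately spaced ones. In all, 1631 regions of any number of lists lay more than 100 kb from other summits, and 696 of them (42.7%) were in all 4 lists, against 52.9% of the 66517 other regions. By distance, the share in all 4 lists was 15.9% within 2 kb of the next summit, 63.5% at 2 to 5 kb, 52.6% at 50 to 100 kb, 45.9% at 100 to 200 kb and 34.5% beyond 200 kb. A further 237 were in 3 lists, 281 in 2 and 417 in 1. The isolated regions of 1 list were the weakest, with a median percentile of 10.6, and those of 2 and 3 lists had medians of 16.2 and 22.5, against 46.1 for those of all 4. Among the 417 of 1 list, 162 came from parental replicate 2, which had the longest list, and 29 from parental replicate 1, which had the shortest. Isolated regions found in both KO1 lists and no parental list numbered 117 (7.17% of 1631), and those in both parental lists and no KO1 list numbered 51 (3.13%). Among the regions with a neighbour within 100 kb the order was the opposite, with 3.54% in both KO1 lists alone and 4.27% in both parental lists alone. All these shares use the presence and distance of summits, which chose the members, and are a description with no test. With every list shortened to the length of that of parental replicate 1, the counts were 147 for KO1 and 57 for parental cells. These were 8.60% and 3.33% of the isolated regions of any list. The shares among the other regions were not computed with shortened lists, so the difference cannot be called particular to the isolated ones.

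Within the limit set by the joining of summits, the position of LSD1 varied between libraries at isolated regions about as it did elsewhere. The strongest summits of the 4 libraries lay within 108 bp at the median (quartiles 59 and 220 bp), against 103 bp at the other shared regions (quartiles 54 and 222 bp). All 4 summits fell within 50 bp at 133 isolated regions (19.1%) and at 22.3% of the other shared regions. Each of the 696 isolated regions held exactly 1 summit per library, as did all but 29 of the 35165 other shared regions. The joining and the choice largely fixed this count. A second summit beyond the joining distance would have formed another region, and the isolated region would no longer have been isolated. The joining also limited how far apart the summits of a region could lie, at both kinds of region. Between any 2 libraries the positions differed by 44 to 49 bp at the median, whether the libraries were of the same genotype (45 and 47 bp) or not. The ranks, which the choice did not use, were less alike between libraries at isolated than at other shared regions. The percentiles of isolated regions had a Spearman's rho of 0.752 between the parental libraries and 0.726 between the KO1 libraries, and of 0.617 to 0.637 where the genotypes differed (4 pairs). At the other shared regions the same values were 0.851, 0.841 and 0.771 to 0.786. All these are descriptions over regions, which share the libraries and their depth.

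The design sets LSD1 in cells without RCOR2 against LSD1 in parental cells. At the isolated regions as a group, the ranks in KO1 and parental cells differed by less than the spread between the parental replicates. The library medians given above average 46.0 ± 5.70 in parental and 48.0 ± 1.37 in KO1 cells (SD, n = 2 libraries each). Region by region, the median of KO1 minus parental was 0.331 points, with quartiles of -8.64 and 10.2, and KO1 was higher at 355 of the 696 regions. At the other shared regions the median was -0.592, with quartiles of -9.12 and 7.28. The median for the isolated regions was -1.34 without parental replicate 1 and 1.99 without parental replicate 2. It was -0.309 without KO1 replicate 1 and 1.37 without KO1 replicate 2, so single libraries set its sign. The medians of the other shared regions were -2.43, 0.911, -0.382 and -0.401 in the same order. Their sign also depended on the library left out, so this dependence was not particular to the isolated regions.

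Single regions were compared by limma on the percentiles of all 35861 shared regions with Benjamini-Hochberg adjustment. No isolated region passed an adjusted p of 0.05, and 0 of all shared regions did (0%), with a lowest adjusted p of 0.166 among the isolated ones. At an unadjusted p under 0.05, limma gave 85 isolated regions (12.2%) against 11.6% of all shared regions. On normal scores of the ranks, limma called 13 isolated regions (1.87%), where 1.11% of all shared regions were called. Of these, 8 were higher in KO1 cells, where 0.566% of all shared regions were, and 5 were lower, where 0.547% were. On log2 of quantile-normalized −log10 values limma called 14 isolated regions (2.01%), where 1.25% of all shared regions were called. Whether an isolated region was called thus depended on the scale, and no call is claimed here. With the replicate number as a block, limma called 8 isolated regions (1.15%), where 0.644% of all shared regions were called.

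Both KO1 libraries ranked above both parental libraries at 152 isolated regions (21.8%), where 19.6% of all shared regions did so, and below them at 144 (20.7%), where 22.4% did so. At the other 400 isolated regions the genotypes overlapped. The shares of isolated regions were near those of all shared regions in both directions. Differences of more than 30 points were rarer. KO1 was higher by more than 30 points at 35 isolated regions (5.03%), where 2.51% of all shared regions were, and lower by as much at 17 (2.44%), where 2.59% were. Differences of any sign were largest at a mean percentile of 25 to 50, where isolated regions were frequent: 45.0% of them lay there, against 28.5% of the other shared regions. In that range the median absolute difference between genotypes was 13.1 points at isolated and 12.7 at other shared regions. Both KO1 libraries lay above both parental ones there at 26.2% of isolated and 19.9% of other shared regions, and below them at 20.8% and 23.4%. The excess above was limited to that range. At mean percentiles of 0 to 25, 50 to 75 and 75 to 100, the isolated regions had 15.1%, 20.2% and 17.0% above. The other shared regions had 16.4%, 20.7% and 18.9% in the same order. With only the upper 50% of each list, 47 of 819 isolated regions (5.74%) were higher and 57 (6.96%) lower by more than 30 points, against 4.52% and 4.94% of the other shared regions. With 1 library left out, the shares ranged from 5.17% to 8.19% higher and from 3.16% to 5.89% lower. Without parental replicate 1 the lower share (5.89%) exceeded the higher one (5.17%). The shares with 1 library left out were not computed for all shared regions, so this reversal cannot be assigned to the isolated regions.

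**Figure D3:**
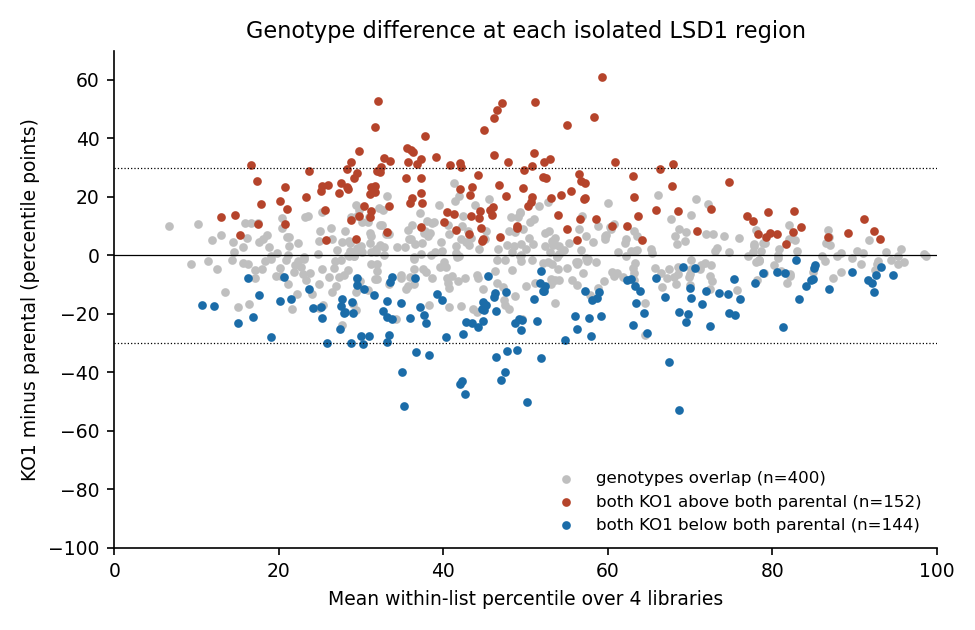
Difference between KO1 and parental cells (y axis, percentile points, means of 2 libraries each) against the mean within-list percentile of the 4 libraries (x axis), with 1 point for each of 696 isolated regions. Colours mark the 152 regions with both KO1 libraries above both parental ones, the 144 with both below and the 400 that overlap, dotted lines mark 30 points, and the points narrow towards 0 at the highest ranks.

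The largest increase in KO1 cells was on chromosome 9 at 91267339-91267430, with no other summit for 114 kb on the right and 115 kb on the left. It ranked at 5.71 and 52.1 in the parental libraries and at 86.2 and 93.3 in the KO1 libraries. Both KO1 libraries were high, but the parental libraries were far apart, and the means of 28.9 ± 32.8 and 89.8 ± 5.01 (SD, n = 2 each) differed by 60.9 points (limma adjusted p = 0.193). The region on chromosome 2 at 82062784-82062919 ranked at 10.0 and 1.37 in parental and at 52.3 and 64.5 in KO1 cells, a difference of 52.7 points. It was near the calling limit in both parental libraries and in the middle of both KO1 lists. The region on chromosome 3 at 19799468-19799590 ranked at 33.5 and 16.4 in parental and at 78.1 and 76.5 in KO1 cells. Its KO1 libraries were close together, and the difference was 52.3 points. On chromosome 13 the region 88462878-88462955 (1.48 and 40.6 in parental, 78.9 and 67.7 in KO1 cells) and on chromosome 4 the region 133101411-133101513 (42.3 and 0.843 in parental, 68.9 and 74.1 in KO1 cells) each had 1 parental library near the bottom of its list and the other well above it. The adjusted p-values of these 5 were 0.191 to 0.249 by limma on percentiles, but 0.000175 (chromosome 9) to 0.0212 (chromosome 2) by limma on normal scores and 0.00816 to 0.0427 by limma with the replicate block.

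The largest decrease was on chromosome 6 at 168083548-168084026. It ranked at 94.5 and 95.7 in parental cells, among the strongest regions of the lists, and at 45.8 and 38.5 in KO1 cells, a difference of -53.0 points between means of 95.1 ± 0.827 and 42.1 ± 5.21 (SD, n = 2 each). Its summits were spread over 478 bp, wider than the median of 108 bp, and its adjusted p was the lowest of the isolated regions by limma on percentiles (0.166) and on normal scores (8.73e-05), with 0.00922 under the replicate block. On chromosome 15 the region 77559174-77559212 ranked at 59.8 and 62.1 in parental and at 8.49 and 10.6 in KO1 cells. On chromosome 13 the region 61989344-61989391 ranked at 74.1 and 76.2 in parental and at 24.6 and 25.6 in KO1 cells. In these 2 regions the replicates of each genotype were close together, with SDs of 0.721 to 1.64, while the genotypes were -51.4 and -50.0 points apart, and their summits lay within 38 and 47 bp (limma adjusted p = 0.191 and 0.193 on percentiles, 0.0340 and 0.0220 on normal scores, 0.0311 and 0.0438 with the replicate block). Also on chromosome 15, 35838079-35838264 had percentiles of 63.4 and 69.2 in parental and 29.1 and 8.81 in KO1 cells. On chromosome 20, 24754471-24754548 had percentiles of 74.4 and 53.6 in parental and 8.87 and 31.1 in KO1 cells. In both, the 2 KO1 libraries differed more than at the other decreases, but neither reached a parental value. The adjusted p was 0.220 and 0.266 by limma on percentiles, 0.0502 and 0.0878 on normal scores, and 0.0564 and 0.0863 with the replicate block. These 10 regions were chosen for the size of their difference, so their values are a description, and an exact permutation test of 2 libraries against 2 cannot give a p below 0.33.

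**Figure D4:**
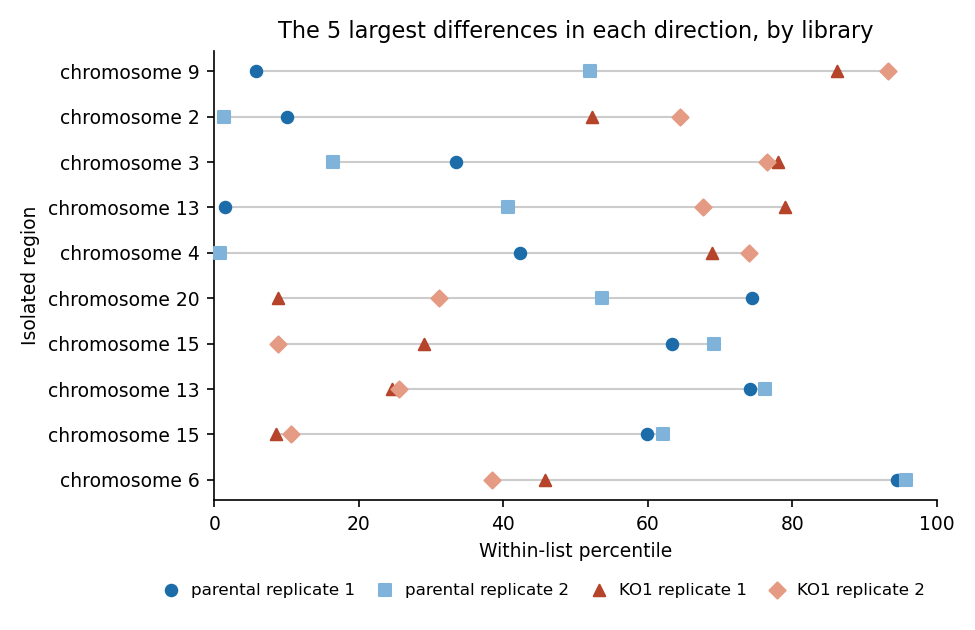
Within-list percentile (x axis) in each of the 4 libraries at the 5 isolated regions with the largest increase in KO1 cells (upper rows) and the 5 with the largest decrease (lower rows), named by chromosome; a grey line joins the lowest and highest value. The parental libraries (blue) are far apart in most of the upper rows, while in the lowest 3 rows the libraries of each genotype sit close together.

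The differences at single isolated regions correlated only weakly with the shift of their chromosome segment. The same correlation was not computed for the other shared regions, so it cannot be called particular to the isolated ones. For the 640 isolated regions in bins of 10 Mb with at least 30 other shared regions, the difference between the genotypes had a Pearson's r of 0.178 with the median difference of the other shared regions of the bin (Spearman's rho 0.169), as a description over regions. Relative to that median, the isolated regions were 1.02 points higher at the median. The bins richest in isolated regions, named after their values were seen, held 8 each. In the bin on chromosome 11 from 90 to 100 Mb, the median difference was -5.83 points at the 8 isolated regions and -10.4 at the other shared regions. On chromosome 6 from 60 to 70 Mb, which had only 24 shared regions, the 8 isolated regions had a median of 14.3 and the others one of -0.648. The bins on chromosome 1 from 180 to 190 Mb and on chromosome 5 from 80 to 90 Mb had medians of 1.05 and 3.06 at their isolated regions. At the other shared regions of these bins the medians were 2.22 and -0.223. Copy number was not analysed here, and its part in these differences was not tested.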

How the data were processed

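LSD1 CUT&RUN libraries of MDA-MB-231 cells, 2 parental and 2 RCOR2-KO1, were analysed from the deposited summit lists. The IgG libraries enter only through the authors' peak calling, where they served as input. Per the labels, the authors used FastQC 0.11.2, Bowtie2 2.3.3.1, Picard and MACS2 2.1.0 with build hg19. The deposited lists give 1 position of 1 bp per peak and its −log10 p or q value. Peak width, fold enrichment, depth and the calling threshold were not used here or are not given in the sources used here. The lowest −log10 value of a list was 1.31 to 1.40.

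Computation used Python 3.11.15 with scipy 1.17.1, numpy 2.4.6, pandas 2.3.3 and, for plots, matplotlib 3.10.9. Values were ranked within each whole list. Each region took, per library, the percentile of its strongest summit. 1 summit on another chromosome was left out. KO1 was compared with parental by limma 3.58.1 in R 4.3.3 with a mean-variance trend over the 35861 shared regions. The steps were tested on simulated data. Protein-coding genes per chromosome were counted in RefSeq GRCh38.p14, with no coordinates used.

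Named regions were the 6 most remote, the 6 strongest and 4 weakest by mean percentile, the 5 largest differences in each direction among regions whose genotypes did not overlap, and the 3 regions on each side of 100 kb. Other regions named, such as the edges of long stretches, were chosen after their values were seen. The members, lists and tests were chosen with earlier results of these data known. Alternatives are given in the closing section. Genes, sequences and motifs at the regions were not analysed here, since they need a genome of hg19.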

Additional observations from a re-analysis of the deposited data

How the results depend on the processing

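The count of 696 isolated regions, their share of 1.94% and their recurrence of 42.7% moved with the distance limit by construction, to 2339, 6.52% and 49.2% at 50 kb and to 158, 0.441% and 34.5% at 200 kb. In the upper 50% of each list the share was 4.94% and the recurrence 39.8%, and with lists shortened to the shortest the share was 2.17%. With 3 lists in place of 4, each library being left out in turn, the share ranged from 2.16% to 2.29% and the recurrence from 48.1% to 51.1%, since fewer summits stand nearby and fewer lists must agree. The median spread of summit positions, 108 bp, was 91.5 bp when joining at 250 bp, 121.5 bp at 1000 bp, 112 bp with the 50 kb limit, 97.5 bp with the 200 kb limit, 98 bp in the upper 50%, 110 bp with shortened lists and 78 to 88 bp with 1 library left out.

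The lower rank of isolated regions, -14.8 points, kept its direction under every alternative run. It was -11.2 with the 50 kb limit, -11.1 in the upper 50%, -17.9 with percentiles over shared regions alone and -11.3 with means in place of medians; as the median within chromosomes, added after seeing the data, it was -13.3.

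The number of isolated regions called by limma was 0 on percentiles, 13 on normal scores and 14 on log2 values, which were 399 and 450 over all shared regions; the cause was not tested. With a replicate block by number, limma called 8 isolated regions and 231 in all, and the median difference of 0.331 was unchanged by construction. Pairing by number had no basis in the values, since the difference between replicates 1 and 2 correlated by 0.00722 between the genotypes. Calls with a library left out are not given, since 1 library would then stand for a genotype.

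Of the shares added after seeing the data, that of both KO1 libraries above both parental, 21.8%, was 25.9% with the 200 kb limit, and that of both below, 20.7%, was 17.7% there. Regions lower by more than 30 points were 6.96% in the upper 50%. Those higher by more than 30 points were 5.17% to 8.19%, and those lower 3.16% to 5.89%, with 1 library left out. For all shared regions these shares were not computed with a library left out. Isolated regions of both KO1 lists alone were 9.17% with the 200 kb limit and 8.60% with shortened lists. Those of both parental lists alone were 5.24% with the 200 kb limit and 5.00% in the upper 50%. For regions that were not isolated, these shares were not computed under such settings. At the named regions whose genotypes overlapped, 2 of 59 values under other settings and 17 of 56 with a library left out changed direction; where the genotypes did not overlap, the choice of regions fixes the direction when a library is left out. The depth is unknown, and a change common to every summit would leave the ranks as they are.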
